A study of Mus musculus with 3 samples.

Results

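Of the 13242 genes counted in single macrophages from injured mouse muscle, 40 make up a set of glycolysis and hypoxia genes. They were taken by name, and all 40 were in the count table. Of these, 17 carry glucose through glycolysis to lactate and out of the cell, from the glucose transporter Slc2a1 to the lactate exporter Slc16a3. Another 22 are hypoxia-responsive genes with other roles, and the last is Hif1a, which encodes the oxygen-regulated subunit of the hypoxia-inducible factor HIF-1. The question put to the set was whether the glycolytic genes and the other hypoxia genes follow the same pattern over treatments and cell clusters.

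The cells were macrophages sorted from the quadriceps of mice 1 week after volumetric muscle loss, a surgical removal of muscle tissue. Wounds were treated with saline, with UBM (urinary bladder matrix, a biomaterial made of extracellular matrix) or with PCL (polycaprolactone, a synthetic polyester). Each treatment is 1 library from a droplet 3' assay in which unique molecular identifiers (UMIs) count captured transcripts. The labels state no strain, sex, age, sort markers or number of mice behind a library, and they do not explain the letters in the names of the authors' 9 clusters (F1, F2, FP1, R1, R2, R3, RP1, RP2 and RP3).

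Cells in low oxygen stabilise the HIF-1 alpha protein, which otherwise is hydroxylated by the Egln enzymes and degraded, and HIF-1 then raises transcription of genes whose promoters hold a short core sequence. Among its known targets are most glycolytic enzymes, the mitophagy receptors Bnip3 and Bnip3l, the oxygen sensors Egln1 and Egln3, and Pdk1. The product of Pdk1 inhibits pyruvate dehydrogenase, the enzyme that feeds pyruvate into the citrate cycle. In macrophages, glycolysis also increases on inflammatory activation with oxygen present, and Hif1a is itself regulated at the transcript level there.

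The UBM library held 2280 cells and 14586276 UMIs, the saline library 341 cells and 1888343 UMIs, and the PCL library 1753 cells and 11006118 UMIs. Median depth was 5477 UMIs per cell in UBM, 4594 in saline and 5662 in PCL. Because each treatment is 1 library, no test between treatments was possible, and cells are not replicates. Ratios of UMIs per 1000000 UMIs of a library or cluster (CPM) are given with exact 95% intervals, which cover counting error only and not differences between mice. A gene was called higher or lower at a ratio of at least 1.5, given at least 10 CPM in 1 of the libraries compared. Only 6 cell barcodes occurred in more than 1 library, and no doublet caller was run on the cells. The 9 macrophage markers were present in every library, at 17426 CPM in sum in UBM, 32177 in saline and 23161 in PCL. Muscle fibre markers stood at 708.6 CPM in saline, 47.6 in UBM and 39.1 in PCL, and neutrophil markers at 1667 CPM in PCL, 249 in saline and 112 in UBM. Of the clusters, F2 (56 cells) stood apart with 50740 CPM of neutrophil markers, where the other clusters had between 62.2 and 371.9. Their part in the results below was not tested.

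What the genes share in sequence was read from RefSeq promoter windows (GRCm38.p6, 250 bases before to 50 after a start site), which exist for 38 of the 40 members. Bnip3l and Ndrg1 have no entry, and Ero1l was matched under its current symbol Ero1a. The hypoxia response core was searched as ACGTG and as GCGTG on both strands (CACGT and CACGC), so that the palindrome CACGTG counts as 2 matches of the first core. The 5 windows printed here belong to genes that the results below describe at length, 2 of glycolysis and 3 of the other group, each 5' to 3' on the gene's strand with every match in capitals. They are Pgk1 (chrX:106186850-106187149, plus strand), Slc16a3 (chr11:120948817-120949116, plus), Bnip3 (chr7:138909457-138909756, minus), Ero1l (chr14:45318523-45318822, minus) and Egln3 (chr12:54203825-54204124, minus).
Pgk1: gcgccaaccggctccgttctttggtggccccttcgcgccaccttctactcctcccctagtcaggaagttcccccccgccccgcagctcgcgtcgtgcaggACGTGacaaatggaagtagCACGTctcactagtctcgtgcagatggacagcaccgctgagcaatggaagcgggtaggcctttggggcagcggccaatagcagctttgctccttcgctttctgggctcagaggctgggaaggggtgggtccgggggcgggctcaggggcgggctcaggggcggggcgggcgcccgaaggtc
Slc16a3: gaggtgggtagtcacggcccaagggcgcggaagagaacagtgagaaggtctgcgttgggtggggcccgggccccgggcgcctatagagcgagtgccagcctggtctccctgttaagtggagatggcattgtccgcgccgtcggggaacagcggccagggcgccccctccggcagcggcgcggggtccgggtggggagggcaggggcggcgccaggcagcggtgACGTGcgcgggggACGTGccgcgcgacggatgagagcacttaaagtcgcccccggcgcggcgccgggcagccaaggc
Bnip3: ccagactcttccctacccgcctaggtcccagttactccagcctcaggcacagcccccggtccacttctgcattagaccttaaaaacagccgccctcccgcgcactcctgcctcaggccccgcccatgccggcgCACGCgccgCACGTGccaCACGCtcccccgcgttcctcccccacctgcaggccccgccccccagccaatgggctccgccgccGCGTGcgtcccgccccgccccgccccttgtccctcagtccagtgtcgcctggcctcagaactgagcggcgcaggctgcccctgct
Ero1l: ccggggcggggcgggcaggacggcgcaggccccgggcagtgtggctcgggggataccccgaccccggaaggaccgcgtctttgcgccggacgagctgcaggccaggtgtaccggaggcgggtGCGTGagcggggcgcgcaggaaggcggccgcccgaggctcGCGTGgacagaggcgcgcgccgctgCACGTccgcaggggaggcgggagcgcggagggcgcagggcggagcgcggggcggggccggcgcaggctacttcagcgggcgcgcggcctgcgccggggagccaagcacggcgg
Egln3: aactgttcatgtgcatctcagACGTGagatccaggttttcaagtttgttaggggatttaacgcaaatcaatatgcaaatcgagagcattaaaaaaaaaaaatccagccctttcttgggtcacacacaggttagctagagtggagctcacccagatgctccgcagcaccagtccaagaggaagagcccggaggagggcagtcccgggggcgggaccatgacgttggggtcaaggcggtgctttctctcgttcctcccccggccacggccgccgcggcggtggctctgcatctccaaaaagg

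The Pgk1 window held 2 matches, starting at -150 and -131 from the start site. The Slc16a3 window held 2 at -27 and -14, and the Egln3 window held 1 at -229. In Bnip3 there were 5 matches, between -117 and -35, including 1 palindrome. Of the 38 members, 34 (89.5%) had at least 1 core in a window, against 46.7% of 27025 genes with a window and 66.6% of the 9828 that are also in the count table. A gene with more windows has more places for a match. Counted by window, the shares were 80.4% of 56 for members, 43.8% of 32851 for all genes and 60.6% of 12506 for genes in the count table. ACGTG alone was found for 73.7% of members, 21.8% of all genes and 28.9% of genes in the count table. The shares were alike in both groups of members, at 15 of 17 glycolysis genes and 18 of 20 other hypoxia genes. Members' windows were also richer in CG steps, with a median of 24 against 20 for genes in the count table and 7 for all genes. Gpi1, Tpi1, Gbe1 and Gys1 had no match in their windows. A match is a description of letters and not a binding site.

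Members took 1.14% of all UMIs in UBM, 0.918% in PCL and 0.419% in saline. For the 17 glycolysis genes the shares were 0.766%, 0.668% and 0.309%, and for the 22 other hypoxia genes 0.366%, 0.221% and 0.101%. So both groups were lowest in saline, and UBM and PCL were closer to each other in glycolysis than in the other hypoxia genes.

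Against saline, UBM held more transcript for most members of both groups. Of the 16 glycolysis genes above the minimum, 13 were at least 1.5-fold higher and 1 was lower, where 9.50% of 7296 genes were higher and 18.5% lower. All 22 other hypoxia genes were higher. With the interval of the ratio also on 1 side of 1, 35 of the 39 members above the minimum remained higher, against 8.58% of genes. At 2-fold, 12 glycolysis and 18 other hypoxia genes were higher and none lower, against 3.92% of genes higher and 7.42% lower. The median log2 ratio with 10 CPM added was 1.35 in each group, against -0.07 over all genes. Scaling by the trimmed mean of M values moved the median of all genes up by 0.10 on the log2 scale and their split from 693 higher and 1347 lower to 1060 and 928 (1010 and 970 with the median of ratios), but left the counts of both groups as given. Hif1a, at 1.37, passed the 1.5-fold rule under that scaling, at 1.51. With equal weight for the clusters that had 50 or more cells in both libraries, 13 other hypoxia genes were higher. That weighting tests fewer genes. The number of members tested and the share over all genes under it are not given, so 13 and 22 are not directly comparable.

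Among glycolysis genes the widest difference was in Pgk1, which makes the first ATP of the pathway (X, 106187100 to 106203699 in GRCm38, plus strand). It stood at 155 CPM in UBM (149 to 162), 116 in PCL (110 to 123) and 10.1 in saline (6.06 to 15.7, from 19 UMIs). Its UBM level was 15.4-fold that of saline (9.86 to 25.7), and its PCL level 11.5-fold (7.35 to 19.2). The intervals of saline and of either implant library did not overlap.

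Entry and exit of the pathway came next. Slc2a1, which takes up glucose, stood at 82.0 CPM in UBM, 94.0 in PCL and 18.5 in saline, a UBM ratio of 4.42 (3.16 to 6.38). Slc16a3, which exports lactate, stood at 146, 200 and 35.5 CPM, ratios of 4.10 (3.22 to 5.32) in UBM and 5.62 (4.41 to 7.28) in PCL. Ldha, which turns pyruvate into lactate, stood at 912 CPM in UBM, 766 in PCL and 369 in saline. Its UBM ratio was 2.47 (2.29 to 2.67), and the middle enzymes Aldoa (2.52), Tpi1 (2.79), Pgam1 (3.22) and Eno1 (3.17) were somewhat higher. Gapdh and Pkm, the enzyme of the last ATP-forming step, had ratios of 2.10 and 2.14.

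Over all cells, Hk2, Pfkp and Pfkfb3 were the exceptions. Hk2, a hexokinase that traps glucose in the cell, stood at 141 CPM in UBM, 140 in PCL and 132 in saline, a UBM ratio of 1.07 (0.936 to 1.22). Pfkp, a phosphofructokinase, had a ratio of 1.36 (1.10 to 1.69) in UBM and 1.42 (1.15 to 1.77) in PCL. Pfkfb3, whose product makes the activator of phosphofructokinase, was lower in both, at 21.7 CPM in UBM and 24.9 in PCL against 39.7 in saline. Its ratios were 0.545 (0.423 to 0.711) and 0.627 (0.484 to 0.820). Within clusters the PCL ratio was 0.960 (0.459 to 2.32) in F1, 0.946 (0.513 to 1.94) in FP1 and 0.521 (0.314 to 0.866) in RP3, the cluster that held 19.9% of saline cells and 5.25% of PCL cells. Pfkfb3 is under a minimum of 50 CPM in every library. Within FP1, Hk2 and Pfkp were both at least 1.5-fold higher than saline in UBM and in PCL, with intervals above 1. Hk2 stood there at 134 CPM in UBM, 160 in PCL and 81.9 in saline, and Pfkp at 81.9, 83.3 and 38.9. Within F1, PCL against saline, neither passed that rule. Within RP3 only Hk2 in PCL did, and it was lower, at 58.6 CPM against 119 in saline. Hk1 (1.79), Gpi1 (3.08) and Pfkl (3.24), which also act early in the pathway, were higher in UBM. Aldoc stayed under the minimum in all 3 libraries.

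In the other hypoxia genes, several with few saline UMIs differed most. Bnip3, a mitophagy receptor, stood at 334 CPM in UBM, 180 in PCL and 34.4 in saline, ratios of 9.71 (7.60 to 12.6) and 5.23 (4.09 to 6.81). Ero1l, an oxidase of disulfide formation in the endoplasmic reticulum, stood at 199, 85.8 and 19.1 CPM, ratios of 10.5 (7.54 to 14.97) and 4.50 (3.23 to 6.46). Ankrd37, an ankyrin repeat gene, had ratios of 9.70 (6.501 to 15.2) and 3.94 (2.62 to 6.20). All 3 were in the order UBM, PCL, saline with intervals apart.

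Egln3, an oxygen-sensing hydroxylase, had 1008 UMIs in UBM, 456 in PCL and 2 in saline. Its ratios were 65.2 (18.0 to 540) in UBM and 39.1 (10.8 to 324) in PCL. Adm, which encodes the vasodilator adrenomedullin, had 399 UMIs in UBM, 19 in PCL and 0 in saline, at least 17.2-fold higher in UBM when saline is set to 3 UMIs for the library. Mif, a cytokine, stood at 1422 CPM in UBM, 765 in PCL and 358 in saline. The smallest differences were in Higd1a (1.52), Kdm3a (1.56, 1.02 to 2.50) and Bnip3l (1.58).

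**Figure D1:**
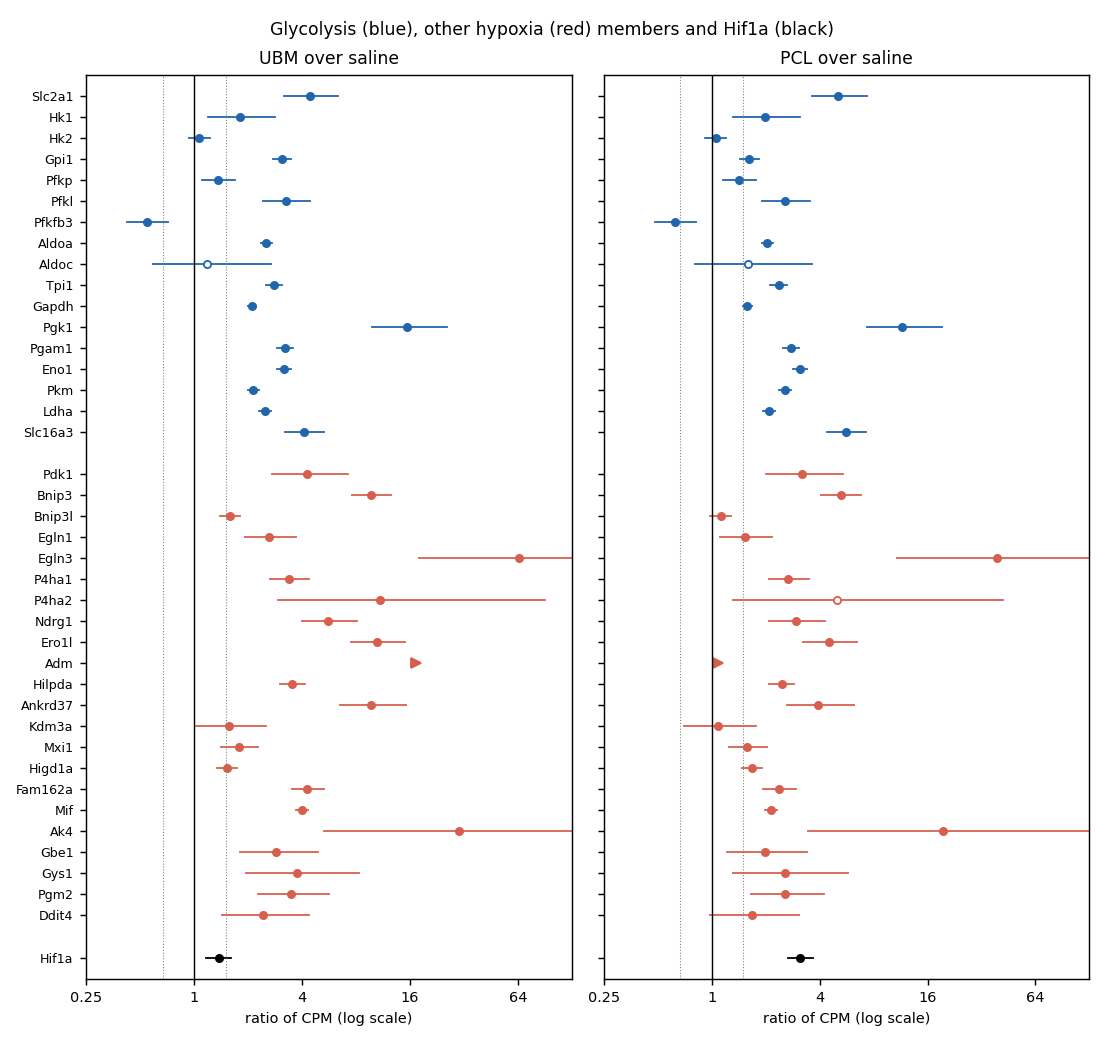
Ratio of CPM (log scale) of UBM (left) and PCL (right) over saline for every member, with exact 95% intervals as bars. Dotted lines mark 1.5-fold, open points are under the minimum, bars that pass the right edge run on, and triangles mark Adm as a lower bound. Pgk1 at 15.4 and Bnip3 at 9.71 lie far to the right and Pfkfb3 at 0.545 to the left.

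PCL against saline gave similar counts. Of 16 glycolysis genes 13 were higher in PCL and 1, Pfkfb3, was lower, where 12.7% of 7389 genes were higher and 11.9% lower. Of 20 other hypoxia genes above the minimum 18 were higher, and Bnip3l (1.12) and Kdm3a (1.09) were not. At 2-fold, 10 glycolysis and 13 other hypoxia genes were higher and none lower, against 4.40% of genes higher and 5.28% lower. Of the 18, the interval of Ddit4 reached below 1 (1.67, 0.980 to 3.06), and 11.5% of all genes were higher with the interval above 1. Median log2 ratios were 1.06 and 1.01, against 0.04 over all genes. The comparison shares its saline library with that of UBM, so the values stand side by side and are not independent.

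PCL was also set directly against UBM. Of 16 glycolysis genes none was at least 1.5-fold higher and 1 was lower, Gpi1 at 0.525 (0.502 to 0.549), where 17.2% of 7200 genes were higher and 8.89% lower. Of the 22 other hypoxia genes none was higher and 11 were lower. At 2-fold, no glycolysis gene and 4 other hypoxia genes were lower and none was higher, against 3.57% of genes lower and 6.51% higher. Median log2 ratios were -0.12 for glycolysis and -0.48 for the other genes, against 0.11 over all genes. Under the trimmed mean of M values, the median of ratios, and totals without ribosomal protein genes and Malat1, the count of 11 became 17. With equal weight for clusters it was 7, again with fewer genes tested and with no number tested or share over all genes given. The split of all genes went from 1240 higher and 640 lower to 912 and 874 with the trimmed mean, 935 and 840 with the median of ratios, and 943 and 996 without ribosomal protein genes and Malat1.

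Lowest relative to UBM was Adm at 0.063 (0.038 to 0.100), followed by Ankrd37 at 0.406 (0.368 to 0.447), Ero1l at 0.430 (0.399 to 0.463) and P4ha2, a collagen prolyl hydroxylase, at 0.460 (0.335 to 0.624). Ndrg1 (0.527), Mif (0.538) and Bnip3 (0.539) followed. Higd1a, a mitochondrial protein, was at 1.10 (1.04 to 1.16). In glycolysis, Pkm was at 1.20 (1.17 to 1.23), Slc16a3 at 1.37 (1.29 to 1.46) and Slc2a1 at 1.15 (1.05 to 1.25). Eno1 was at 0.985 (0.959 to 1.01), and at 0.910 under the trimmed mean. Ldha (0.840), Gapdh (0.752) and Pgk1 (0.748) were below 1 with intervals that exclude it.

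**Figure D2:**
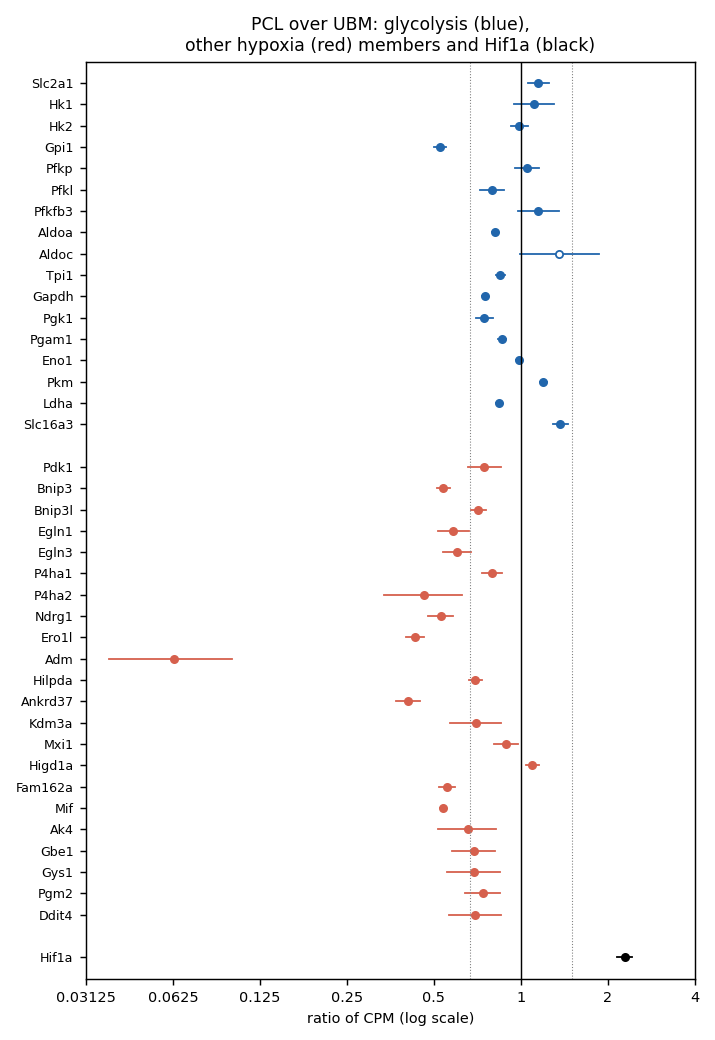
Ratio of CPM (log scale) of PCL over UBM for every member, with exact 95% intervals as bars and dotted lines at 1.5-fold. Most glycolysis genes lie near 1, the other hypoxia genes except Higd1a lie to the left with Adm at 0.063, and Hif1a lies to the right at 2.28.

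Hif1a went its own way. It stood at 280 CPM in PCL (270 to 290), 123 in UBM (116.9 to 128.3) and 89.5 in saline (76.5 to 104), with no overlap of intervals. PCL was 2.28-fold higher than UBM (2.15 to 2.42) and 3.13-fold higher than saline (2.68 to 3.67), whereas UBM was 1.37-fold higher than saline (1.17 to 1.61). The library with most Hif1a transcript was thus not the one with most Bnip3, Ero1l or Adm. These are transcript levels and do not measure HIF-1 alpha protein.

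The libraries also differed in how many cells fell in each cluster. RP1 held 25.2% of UBM cells, 2.11% of PCL cells and 3.81% of saline cells, and FP1 held 59.1% of PCL cells against 4.34% and 21.1%. Clusters were made from the same cells' expression, so levels by cluster are a description. Over all cells, RP1 had the highest level of 13 of the 17 glycolysis genes and of all 22 other hypoxia genes. No share of all genes highest in RP1 is given beside these counts. RP1 also had the lowest sum of macrophage markers, 8625 CPM, where the other clusters had between 14165 and 40627.5. In UBM, ribosomal protein genes took 24.9% of its UMIs, the highest share of any cluster there. Its median mitochondrial share there, 1.07%, was the lowest. The part of this make-up in the RP1 levels was not tested. Intervals of RP1 and the next cluster overlapped for Slc2a1, Hk1 and Eno1, and for Pdk1, Ankrd37, Mxi1, Ak4 and Ddit4. F2 was highest for the remaining 4 glycolysis genes, which are Pfkp, Pfkfb3, Aldoc (from 4 UMIs) and Slc16a3. Only for Slc16a3 were the intervals of F2 and the next cluster apart. FP1 was highest for Hif1a over all cells, but most of its cells came from PCL. Within PCL, Hif1a stood at 352 CPM in RP1 (278 to 439) and 297 in FP1 (283 to 310), with overlapping intervals, and within UBM it was highest in R2 at 227 CPM, against 135 in FP1. RP3 was lowest for 11 glycolysis genes and R3 for 11 other hypoxia genes.

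Ero1l was at 663 CPM in RP1 and at 104 in FP1, the next cluster, and RP1 held 49.9% of all Ero1l UMIs. Adm was at 107 CPM in RP1 and 11.96 in RP2, with 74.9% of its UMIs in RP1. Bnip3 was at 811 CPM in RP1 and 317 in RP2. For Pgk1 the highest and next clusters were nearer, at 256 CPM in RP1 and 179 in R1, and Eno1 (1226 against 1146 in R1) had overlapping intervals. Slc16a3 was at 548 CPM in F2 (466 to 640) and 240 in RP1, and F2, where 45 of the 56 cells came from PCL, is the cluster with the high neutrophil markers. Their part in the F2 levels was not tested.

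**Figure D3:**
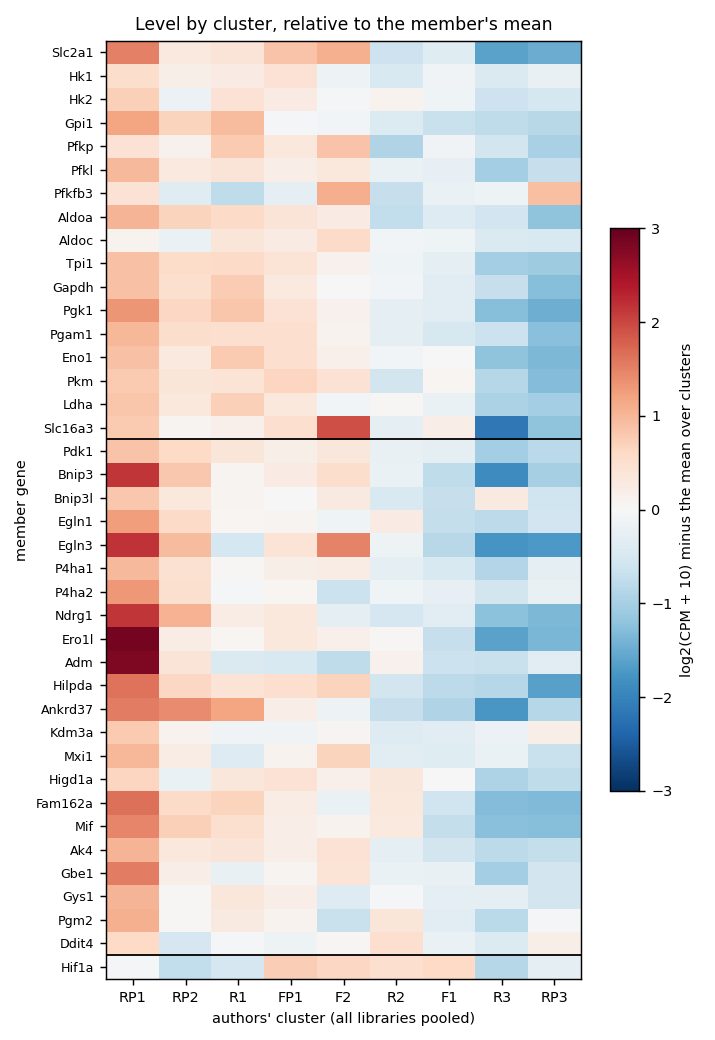
Level of each member in the authors' 9 clusters, as log2(CPM + 10) minus the member's mean over clusters, with lines between glycolysis genes, other hypoxia genes and Hif1a. RP1 is red for most members, with Aldoc and Hif1a pale, and darkest in Ero1l and Adm, R3 and RP3 are mostly blue, and Pfkfb3, Slc16a3 and Hif1a depart from the pattern.

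Inside the UBM library alone, RP1 (574 cells) was again highest for 35 of the 40 members. Against RP2 (640 cells), 18 of 22 other hypoxia genes were at least 1.5-fold higher and none lower, with a median ratio of 2.05. Of 16 glycolysis genes 6 were higher and none lower, with a median ratio of 1.39. Over all 6933 genes compared, 10.3% were higher and 10.5% lower. Adm had the largest ratio at 8.71 (6.48 to 11.9), then Ero1l at 6.74 (6.05 to 7.52), Ddit4 at 3.40 (2.26 to 5.21) and Gbe1, the glycogen branching enzyme, at 3.24 (2.52 to 4.21). Ankrd37 was at 1.03 (0.920 to 1.16). In PCL, RP1 had only 37 cells and was highest for 35 of 40 members, though its Adm count was 1 UMI. In saline, RP1 held 13 cells, 11 of them above 10% mitochondrial UMIs, and FP1 was highest for 17 members and R1 for 12. For these counts of the highest cluster in each library, no share over all genes is given, so they are a description of members only.

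**Figure D4:**
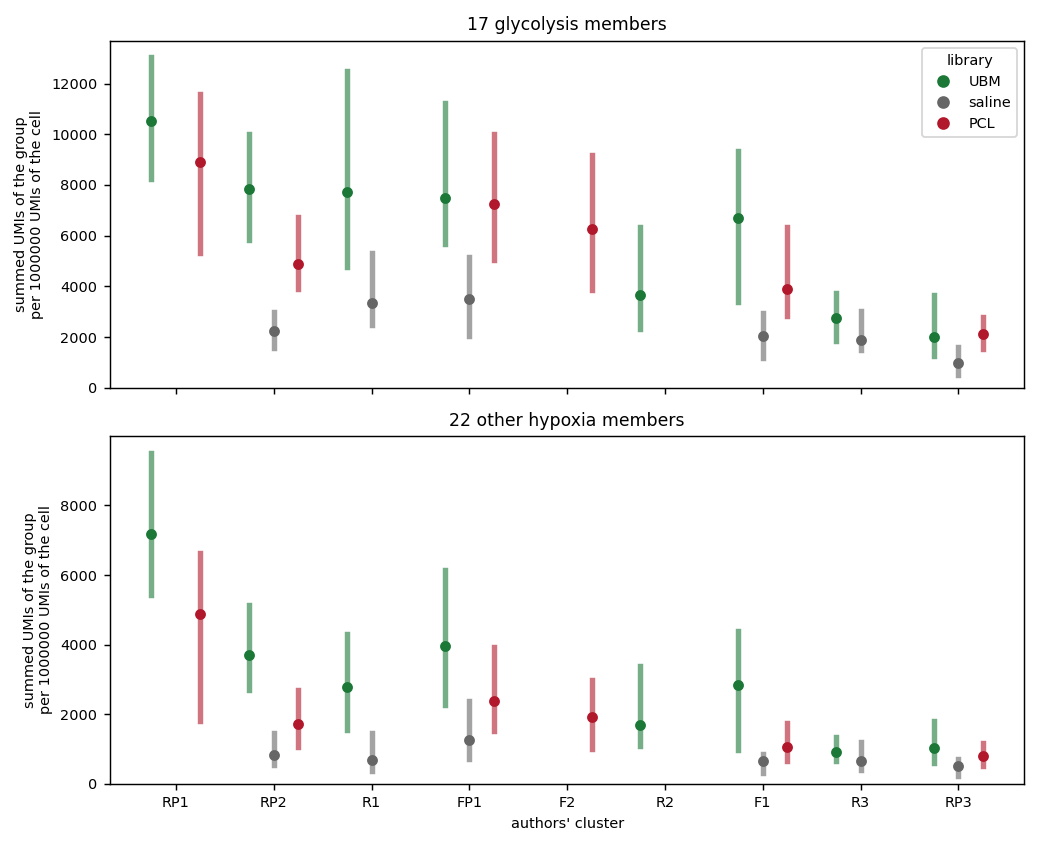
Summed UMIs of the glycolysis genes (top) and other hypoxia genes (bottom) per 1000000 UMIs of a cell, as the median (point) and quartiles (bar) over cells, by cluster and library where at least 20 cells exist. In UBM, RP1 reaches medians of 10512 and 7170, and the saline medians are below those of UBM in every cluster where both are drawn.

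Libraries were next compared inside single clusters, where both contributed 50 cells or more. In FP1, with 99 UBM and 72 saline cells, 14 of 16 glycolysis genes were higher in UBM and 1 lower, and 14 of 21 other hypoxia genes were higher, where 18.8% of genes were higher and 22.3% lower. In RP3, with 200 and 68 cells, the counts were 14 of 16 and 12 of 16 higher, with Pfkfb3 lower again, where 18.2% of genes were higher and 32.0% lower. When the interval of the ratio also had to lie on 1 side of 1, FP1 had 14 and 12 higher and none lower, against 6.21% of genes higher and 9.14% lower. RP3 had 12 and 7 higher and Pfkfb3 lower, at 0.346 (0.212 to 0.569), against 4.69% of genes higher and 10.9% lower. Cells of 1 cluster were not alike in markers between libraries. Muscle fibre markers within FP1 stood at 55.3 CPM in saline, 12.6 in UBM and 26.5 in PCL. Within RP3 they stood at 316 in saline, 59.8 in UBM and 89.6 in PCL. Macrophage markers within FP1 stood at 28968 CPM in saline, 10926 in UBM and 22223 in PCL, and monocyte markers at 297, 991 and 425. Within RP3, macrophage markers were nearer, at 31067.5 in saline, 30412 in UBM and 29066 in PCL. The part of these markers was not tested. Pgk1 was at 149 CPM in UBM and 14.3 in saline in FP1, a ratio of 10.4 (4.88 to 26.4). In RP3 Pgk1 had 40 UMIs in UBM and 0 in saline. Bnip3 ratios were 4.57 (3.03 to 7.17) in FP1 and 3.77 (1.85 to 8.96) in RP3, below the 9.71 over all cells.

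For PCL against saline, 3 clusters qualified. Higher were 11 of 16 glycolysis and 16 of 18 other hypoxia genes in F1, where 24.3% of genes were higher and 16.6% lower. In FP1 they were 14 of 16 and 13 of 20, with Kdm3a lower, against 16.9% of genes higher and 15.1% lower. In RP3 they were 13 of 16 and 13 of 17, with Hk2 and Pfkfb3 lower, against 26.5% of genes higher and 22.1% lower. With the interval on 1 side of 1, F1 had 10 and 14 higher and none lower, against 9.58% of genes higher and 7.46% lower. FP1 had 14 and 11 higher and none lower, against 7.35% and 7.31%. RP3 had 9 and 2 higher and 2 glycolysis genes lower, against 6.64% and 5.12%. Within F1, macrophage markers stood at 24090 CPM in PCL and 34152 in saline, and monocyte markers at 2400 and 1102. Their part was not tested. Slc16a3 ratios were 4.55 (2.64 to 8.61) in F1, 5.26 (3.39 to 8.63) in FP1 and 4.78 (1.49 to 24.5, from 3 saline UMIs) in RP3.

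Within clusters, the gap between PCL and UBM differed by cluster. In FP1 (1036 PCL and 99 UBM cells) 2 glycolysis genes were higher, Pfkfb3 and Slc16a3, and 3 other hypoxia genes were lower, Mif, Gys1 and P4ha2, where 19.3% of genes were higher and 14.2% lower. Bnip3 there was at 0.899 (0.773 to 1.05), where over all cells it was at 0.539. In RP2 (58 and 640 cells) 6 of 16 glycolysis and 15 of 21 other hypoxia genes were lower and none higher, where 23.0% of genes were higher and 16.6% lower. Bnip3 was at 0.475 (0.357 to 0.621), Ankrd37 at 0.305 (0.182 to 0.480) and Mif at 0.418 (0.364 to 0.478). Macrophage markers within RP2 stood at 28727 CPM in PCL and 16063 in UBM, and monocyte markers at 275 and 131. Their part was not tested. In RP3 (92 and 200 cells) 6 of 16 glycolysis and 5 of 17 other hypoxia genes were lower, and 1 glycolysis gene, Pfkfb3, was higher. Of all genes there, 28.3% were higher and 10.1% lower. With the interval below 1, 1 other hypoxia gene (Mif) was lower in FP1, against 9.92% of genes. In RP2 4 glycolysis and 11 other hypoxia genes were lower, against 5.48%. In RP3 it was 4 of each, against 3.03%. Hif1a was higher in PCL in all 3, at 2.20 (1.81 to 2.70), 3.33 (2.59 to 4.25) and 1.71 (1.28 to 2.27).

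Over the 14 sums of 1 cluster in 1 library with at least 50 cells, the mean log2 levels of the 2 groups of genes had a Pearson r of 0.938. Sums of 1 library share its cells' treatment and depth, and r is given as a description. Ldha (0.983), Tpi1 (0.978) and Pfkl (0.976) were most like the glycolysis mean, and Bnip3 (0.977), Ero1l (0.973) and Fam162a (0.972) most like the mean of the others. Pfkfb3 ran against glycolysis at -0.63, and Hk2 (0.626) was the weakest of the other glycolysis genes. Hif1a had an r of 0.283 with glycolysis and 0.188 with the other genes. Outside the set, the genes with the highest r to the glycolysis mean, among 3865 considered, were Rgcc (0.951), Ier3ip1 (0.939) and Dctn3 (0.933). The highest to the other hypoxia genes were Eif4ebp1 (0.937), Bsg (0.930) and Flrt2 (0.919).

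**Figure D5:**
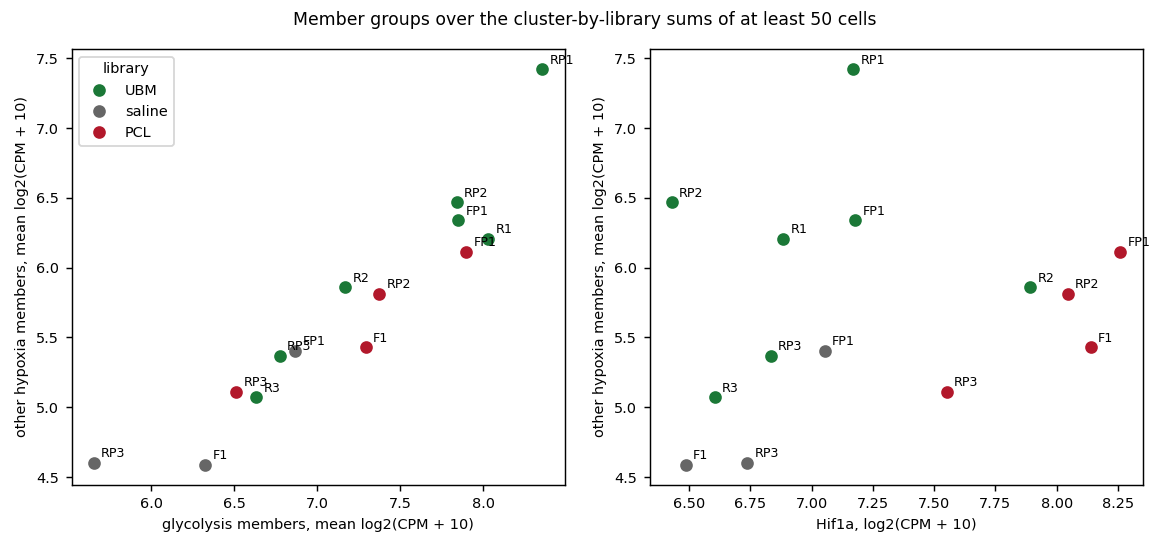
Each point is the sum of 1 cluster in 1 library with at least 50 cells, coloured by library. On the left the mean log2(CPM + 10) of the other hypoxia genes rises with that of the glycolysis genes (r = 0.938), and on the right it shows no such line against Hif1a (r = 0.188), where 3 of the 4 points furthest right are PCL.

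Other genes of the pathways came from lists outside the set. Their counts are read beside the 9.50% of all genes higher and 18.5% lower in UBM against saline, and the 12.7% and 11.9% in PCL against saline. Of 6 further glycolysis genes above the minimum, 2 were higher in UBM than in saline, Hk3 (2.10) and Slc16a1 (1.99), and 3 lower, among them Eno3 (0.295) and Pgam2 (0.061), which are muscle isoforms of enolase and phosphoglycerate mutase. The muscle fibre markers were 708.6 CPM in saline, as above, and their part in this was not tested. Of 15 further hypoxia genes 4 were higher, led by Hmox1 (3.15) and Vegfa (2.21), and 2 lower. Of 7 genes of the HIF pathway 1 was higher, Epas1, with 180 UMIs in UBM against 2 in saline and 12 in PCL. None of 21 pyruvate and citrate cycle genes was higher and 1 was lower, and none of 7 pentose phosphate genes was higher and 2 lower. In PCL against saline, 1 of 6 further glycolysis genes, 5 of 15 further hypoxia genes, none of 6 HIF pathway genes, 2 of 7 pentose phosphate genes and none of 21 citrate cycle genes were higher. In these short lists several counts lie near the shares over all genes.

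Counts of some members may include reads that also fit another gene. In the last 400 bases of the transcript, 98-base windows (an assumed read length) also occur in another annotated gene at 70.0% of positions for Gapdh (54 genes), 65.3% for Eno1, 57.8% for Bnip3, 55.8% for Mif and 23.4% for Fam162a. For Pfkp all of them occur in Pitrm1. Other transcripts were searched on both strands and the strand of a match was not kept. A match can therefore also be an overlap with a gene on the opposite strand, and need not mean that the genes are alike. How reads that fit more than 1 gene were counted is not stated in the labels. Pgk1, Ero1l, Egln3, Hif1a and the remaining members had none.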

How the data were processed

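Counts are UMIs per gene and cell, deposited by the authors as 1 table, with a second table giving each cell's condition and cluster. Per the submitters' processing notes, Cell Ranger made the counts and Seurat version 2 the clusters. The build those notes name is hg38, although the gene symbols are mouse symbols. Cell filters are not stated. 

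UMIs were summed over the cells of a library or of a cluster within it and scaled to 1000000. Levels have exact Poisson intervals and ratios exact conditional binomial intervals, at 95%. A floor of 3 UMIs per library was used where a library had none. Log2 values have 10 CPM added. The ratios and intervals were tried on counts simulated with Poisson error, which the intervals themselves assume. Such a trial does not cover spread between cells or mice. Scaling alternatives used edgeR 4.0.16 in R 4.3.3, and the rest Python 3.11.15 with scipy 1.17.1. All 40 members could be named, and from other lists the 2 highest and 2 lowest. The members and lists were chosen with earlier results of these data known. Positions are from GENCODE M21 (GRCm38). Aldoa is given no position because more than 1 annotated gene has that name.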

Additional observations from a re-analysis of the deposited data

Results flagged for a closer look

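Some members were higher in one cluster and lower in another under the same contrast, and these differences between clusters were not tested. For PCL against saline, Hk2 had a ratio of 1.96 (1.43 to 2.75) within FP1 and 0.492 (0.294 to 0.823) within RP3. For PCL against UBM, Slc16a3 had a ratio of 1.63 (1.33 to 2.003) within FP1 and 0.624 (0.425 to 0.886) within RP2. In both cases the 2 intervals lie on opposite sides of 1. Kdm3a was also called higher in one cluster and lower in another for PCL against saline, at 1.77 (0.447 to 15.3) within F1, 1.85 (0.4996 to 10.2) within RP3 and 0.644 (0.334 to 1.39) within FP1, but from few saline UMIs and with every interval spanning 1.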

How the results depend on the processing

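No result below reversed direction. With 1 library per treatment, leaving out a replicate could not be tried. No paired analysis was possible because each treatment has 1 library.

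Equal weight for the clusters with 50 or more cells in both libraries, which tests fewer genes, gave 13 other hypoxia genes higher in UBM than in saline in place of 22, and 7 lower in PCL than in UBM in place of 11. The 11 became 17 under each of the trimmed mean of M values, the median of ratios, and totals without ribosomal protein genes and Malat1. A minimum of 50 CPM tests fewer genes. It left 13 other hypoxia genes higher in UBM and 10 in PCL against saline, and 0 glycolysis genes lower against saline in either. For this minimum, here and within clusters below, and for equal weight, the members tested and the shares over all genes are not given. A smaller count under these settings is therefore not read as a loss of calls. A 2-fold rule left 0 glycolysis genes lower in each of the 3 comparisons and 4 other hypoxia genes lower in PCL than in UBM.

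Within clusters the 50 CPM minimum gave, for UBM against saline, 0 glycolysis genes lower in FP1, and 9 glycolysis and 6 other hypoxia genes higher in RP3. For PCL against saline it gave 7 other hypoxia genes higher in F1, 8 higher and 0 lower in FP1, and 8 glycolysis and 4 other hypoxia genes higher in RP3. For PCL against UBM it gave 1 glycolysis gene higher and 1 other hypoxia gene lower in FP1, and 3 of each lower in RP3. Without cells above 10% mitochondrial UMIs, 1 other hypoxia gene was lower in PCL than in saline in RP3, where none had been. The cause of these moves, beyond fewer genes tested, was not tested. Members with few saline UMIs, such as Egln3 and Adm, are limited by depth.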

Other observations

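The share of cells with at least 1 UMI was also taken after thinning each cell to 2500 UMIs, which left out 162 UBM, 79 saline and 154 PCL cells. Pgk1 was then found in 30.9% of UBM cells (29.0 to 32.9), 24.3% of PCL cells (22.2 to 26.5) and 1.15% of saline cells (0.237 to 3.31), with unthinned shares of 51.4%, 43.5% and 4.99%. Hif1a was found in 24.1% of UBM cells (22.3 to 26.0), 47.4% of PCL cells (44.9 to 49.9) and 18.7% of saline cells (14.2 to 23.96), with unthinned shares of 43.2%, 73.0% and 34.9%. Intervals are exact binomial over cells of 1 library. All sorted cells were labelled macrophages, so a level from free RNA in cells that lack these genes was not estimated.

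Among genes of the pentose phosphate pathway, a branch from glycolysis, Pgd stood at 198 CPM in PCL, 94.0 in UBM and 91.6 in saline, and Taldo1 was 1.998-fold higher in PCL than in UBM (1.89 to 2.11). Hmox1, which breaks down haem, was 1.95-fold higher in PCL than in UBM (1.90 to 2.002). Over the further hypoxia genes 3 of 15 were higher in PCL than in UBM and 3 lower, where 17.2% of all genes were higher and 8.89% lower.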
